A study of Rattus norvegicus with 6 samples.

Results

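The miRNAs described here are both arms of the miR-143 and miR-145 hairpins: rno-miR-143-3p, rno-miR-143-5p, rno-miR-145-5p and rno-miR-145-3p. They were taken by name, with no measured value used in the choice, and all 4 were present among the 749 mature miRNAs of the deposited table. The table holds exosomal miRNA counts of Sprague-Dawley rat bone marrow mesenchymal stem cells (MSCs) at passages 3 to 4. MSCsTXL-exo (3 libraries) came from MSCs that had been given 400 μg/mL of Tongxinluo (TXL), a Chinese medicine compound, for 24 h, and MSCs-exo (3 libraries) came from MSCs without TXL (0 μg/mL). In both groups the exosomes were pelleted by ultracentrifugation from conditioned medium, and the miRNA was measured in vesicles and not in the cells themselves. The libraries carry the numbers 10, 12 and 13 in both groups, and what the numbers mark is not given in the sources used here. These sources name no separate cultures or animals behind the 3 libraries of a group. A p-value here therefore weighs a group difference only against the scatter between libraries.

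miR-143 and miR-145 are processed from a shared primary transcript and are best known from vascular smooth muscle, where serum response factor and its coactivator myocardin switch them on. There they hold cells in the contractile state: miR-145-5p represses KLF4 and KLF5, transcription factors of the dedifferentiated synthetic state, and miR-143-3p represses ELK1, which competes for the myocardin partner. Both are also made by fibroblasts and other stromal cells, and they are among the miRNAs that endothelial cells and smooth muscle cells are known to pass to each other in vesicles. In each hairpin 1 arm usually becomes the guide that is loaded into Argonaute and the other, the passenger, is mostly degraded. No mRNA was measured in this series, so the smooth muscle name of the cluster refers to this background and was not checked against contractile genes.

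The mature sequences are shown because target recognition rests on the seed, bases 2 to 8, printed in capitals (RefSeq, GRCr8).
rno-miR-143-3p: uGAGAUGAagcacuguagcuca
rno-miR-143-5p: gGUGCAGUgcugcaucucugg
rno-miR-145-5p: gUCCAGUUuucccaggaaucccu
rno-miR-145-3p: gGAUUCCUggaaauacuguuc
The 4 seeds differ from each other, and 0 other miRNAs among 693 mature rat miRNAs of RefSeq carry any of them. RefSeq sequences were matched by name for 682 of the 749 miRNAs of the table, the 4 arms included. No arm therefore has a family member of the same seed in that set. How reads were divided between similar sequences was not examined.

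The hairpins are shown because they place the abundant arm on opposite sides of the loop, with the 5p arm first and the 3p arm second, both in capitals (RefSeq, GRCr8, minus strand).
Mir143, chr18:57371349-57371453: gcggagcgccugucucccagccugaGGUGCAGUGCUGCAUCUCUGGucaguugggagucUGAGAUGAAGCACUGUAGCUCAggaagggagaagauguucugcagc
Mir145, chr18:57369983-57370070: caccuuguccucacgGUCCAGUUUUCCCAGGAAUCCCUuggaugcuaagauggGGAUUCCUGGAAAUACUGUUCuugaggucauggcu
The hairpins are separated by 1278 bases and lie within the span of Carmn (chr18:57368191-57389112), the long noncoding host RNA also named Mir143hg. The nearest protein-coding genes are Csnk1a1, a casein kinase gene, on one side and Il17b, a cytokine gene, on the other. The deposited table places the mature arms on the minus strand of chromosome 18, for example miR-143-3p at 56971297 to 56971318, in a genome build that is not given in the sources used here. The nearest miRNA rows of the table outside the cluster on that chromosome, those of miR-378a and miR-3557, are 243710 bases or more away. That search did not cover the stretch between the hairpins. In RefSeq no gene besides Carmn, Mir143 and Mir145 overlaps the span of the hairpins.

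Across the series, library totals were 382665 to 1792805 UMIs (unique molecular identifiers, which count each captured molecule once) in MSCsTXL-exo and 453812 to 1000585 UMIs in MSCs-exo. Levels are given as CPM, UMIs of a miRNA per 1000000 UMIs of its library after edgeR's TMM scaling (trimmed mean of M values). A miRNA with no UMI could still be present at 1.94 CPM in the deepest library and 7.48 CPM in the shallowest (3 UMIs, counting error only). Of the 749 miRNAs, 392 passed the filter on low counts, all 4 arms among them, and each arm passed in both groups with at least 50 UMIs in every library.

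miR-143-3p was one of the most abundant miRNAs of these exosomes, and its 3 companions were far below it. miR-143-3p ranked 4 to 8 in the MSCsTXL-exo libraries and 2 to 6 in the MSCs-exo libraries, and 6 by mean level over both groups. The 4 arms together made up 5.81% ± 1.65 (SD, n = 3) of the UMIs in MSCsTXL-exo and 6.98% ± 0.939 (SD, n = 3) in MSCs-exo. Between 94.95% and 97.4% of these UMIs were miR-143-3p, both limits being MSCsTXL-exo libraries (10 and 12). The cluster's weight in the exosomes was thus the weight of a single arm.

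miR-143-3p, the guide arm of miR-143, had 48870.0, 73020.0 and 49032 CPM in MSCsTXL-exo libraries 10, 12 and 13, against 63442, 70559 and 61398 CPM in MSCs-exo libraries 10, 12 and 13. MSCsTXL-exo library 12 was above every MSCs-exo library and the other two were below all of them, so the groups overlapped. The means were 56974 ± 13896 CPM (SD, n = 3) in MSCsTXL-exo and 65133 ± 4809 CPM (SD, n = 3) in MSCs-exo. The log2 fold change of miR-143-3p was -0.19 (standard error 0.21, 95% interval -0.69 to 0.30), and the quasi-likelihood test of edgeR gave an adjusted p = 0.993 (Benjamini-Hochberg over all 392). A 2-fold difference in either direction lies outside that interval. Within a library number the MSCsTXL-exo over MSCs-exo fold was 0.770 for number 10, 1.03 for number 12 and 0.799 for number 13.

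miR-145-5p, the guide arm of miR-145, had 2072, 1429.7 and 1738 CPM in MSCsTXL-exo libraries 10, 12 and 13, against 1464, 2062 and 1895 CPM in the MSCs-exo libraries of the same order. The highest and the lowest of the 6 values were both in MSCsTXL-exo. Its means were 1747 ± 321 CPM (SD, n = 3) in MSCsTXL-exo and 1807 ± 309 CPM (SD, n = 3) in MSCs-exo, and the estimated log2 fold change was -0.05 (95% interval -0.69 to 0.59, standard error 0.28). Its adjusted p in edgeR was 0.993. Within a number its fold was 1.42 for number 10, 0.693 for 12 and 0.917 for 13. Leaving out MSCs-exo library 12 or MSCsTXL-exo library 12 turned the sign (0.05 for each), so no direction can be given for miR-145-5p.

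miR-143-5p, the passenger arm of miR-143, was the arm with the largest estimated difference. It was counted 161, 328 and 425 times in MSCsTXL-exo libraries 10, 12 and 13, against 228, 464 and 371 times in the MSCs-exo libraries, or 401.5, 406 and 275 CPM against 439, 653 and 401.0 CPM. MSCsTXL-exo libraries 10 and 12 lay just above the lowest MSCs-exo library, so the groups overlapped narrowly, and the MSCsTXL-exo library was the lower one in each of the 3 numbers (folds 0.914, 0.622 and 0.687). The means of miR-143-5p were 361 ± 74.0 CPM (SD, n = 3) in MSCsTXL-exo and 498 ± 136 CPM (SD, n = 3) in MSCs-exo. The log2 fold change was -0.46 (standard error 0.35, 95% interval -1.29 to 0.36), and its adjusted p in edgeR was 0.993. This interval holds both no difference and a 2-fold lower level in MSCsTXL-exo. Without MSCs-exo library 12, its highest, the log2 fold change of miR-143-5p was -0.22.

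miR-145-3p, the passenger arm of miR-145 and the rarest of the 4, was counted 50, 117 and 243 times in the MSCsTXL-exo libraries and 56, 127 and 123 times in the MSCs-exo libraries. These counts gave 125, 144.7 and 157 CPM in MSCsTXL-exo libraries 10, 12 and 13, against 108, 179 and 133 CPM in the MSCs-exo libraries. All MSCsTXL-exo values of miR-145-3p fell inside the range of MSCs-exo. The means were 142 ± 16.5 CPM (SD, n = 3) in MSCsTXL-exo and 139.8 ± 35.9 CPM (SD, n = 3) in MSCs-exo, and the log2 fold change was 0.03 (standard error 0.37, 95% interval -0.84 to 0.89, adjusted p = 0.993 in edgeR). With library totals in place of TMM its log2 fold change was -0.06, and the sign also turned without MSCs-exo library 10 (-0.16) or 13 (-0.06) and without MSCsTXL-exo library 12 (-0.01) or 13 (-0.11), so no direction can be given for miR-145-3p.

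**Figure D1:**
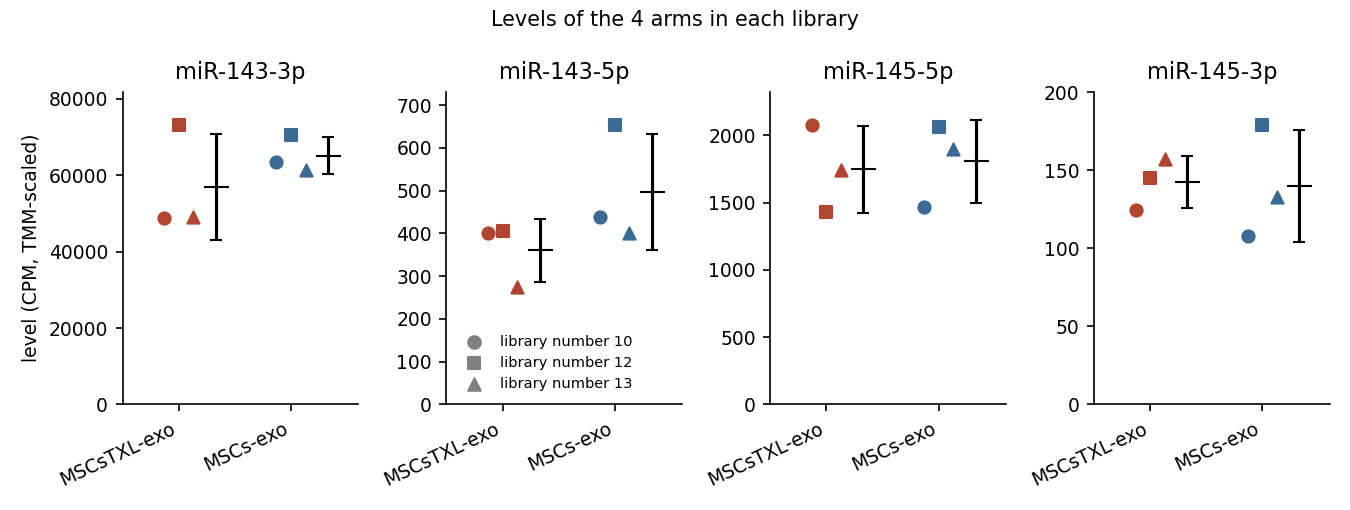
Level of each arm (y axis, TMM-scaled CPM, starting at 0) in the 3 MSCsTXL-exo libraries (left) and the 3 MSCs-exo libraries (right), with the marker shape giving the library number and black bars giving mean ± SD. For miR-143-3p, MSCsTXL-exo library 12 (73020.0 CPM) stands above the other MSCsTXL-exo libraries (48870.0 and 49032 CPM), and in all 4 panels the groups overlap.

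The study's rule asks for more than a 2-fold difference together with an unadjusted p under 0.05. In edgeR 0 of the 4 arms met it, and 14 of the 392 miRNAs tested did (3.57%). None of the 4 had an unadjusted p under 0.05. An adjusted p under 0.05 was reached by 0% of the 392, against 14 with an unadjusted p under 0.05, and by 0 of the 392 in DESeq2 and in limma-voom. Both of these tools also left 0 of the 4 arms past the study's rule. A replicate block on the library number brought this to 29 of the 392, again 0 of the 4 arms. The count of 14 also changed when a library was left out. It was 6 without MSCs-exo library 10 or 12 and 38 without MSCs-exo library 13. Without MSCsTXL-exo library 10, 12 or 13 it was 12, 13 and 25, in that order. For 0 of the 4 arms did the groups not overlap, where they did not for 7.4% of all tested miRNAs. The log2 fold change was negative for 3 of the 4 arms (median -0.12), and for 47.4% of all tested miRNAs (median 0.03). A difference between the exosomes was not detectable for any arm at this spread.

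**Figure D2:**
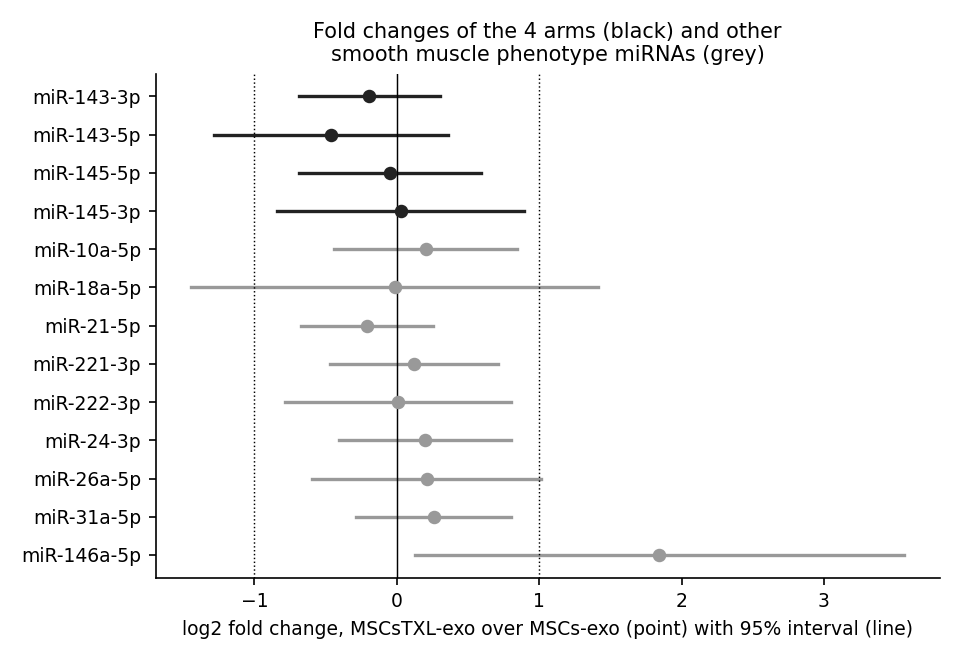
Log2 fold change of MSCsTXL-exo over MSCs-exo (points) with its 95% interval from edgeR (lines) for the 4 arms in black and other miRNAs of smooth muscle phenotype in grey, with dotted lines at a 2-fold change. The intervals of all 4 arms cross 0, and only that of miR-143-5p reaches past a dotted line among them (-1.29).

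The order of the arms was the same in all 6 libraries: miR-143-3p, then miR-145-5p, then miR-143-5p, then miR-145-3p. The ranges over the 6 libraries did not touch: 1429.7 to 2072 CPM for miR-145-5p, 275 to 653 CPM for miR-143-5p and 108 to 179 CPM for miR-145-3p, with miR-143-3p at 48870.0 CPM or more. A UMI stands for 1 captured molecule, so these levels need no correction for length, although small RNA library kits capture some sequences better than others. The spread between libraries was well above counting error for the abundant arms. For miR-143-3p the coefficient of variation was 24.4% in MSCsTXL-exo and 7.38% in MSCs-exo, where counting error alone gives 0.501% and 0.476%. For miR-145-3p it was 11.6% in MSCsTXL-exo, close to its counting error of 9.87%, and 25.7% in MSCs-exo, against 10.1%.

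**Figure D3:**
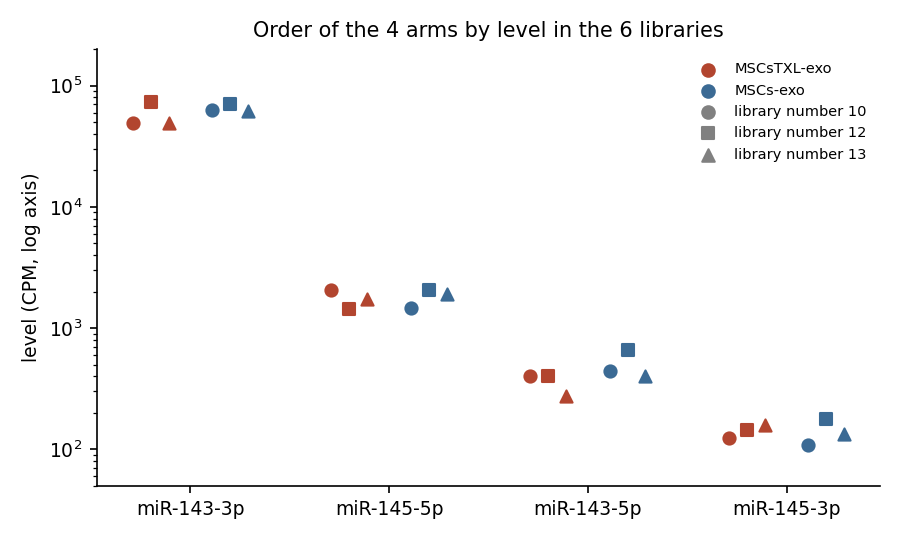
Level of the 4 arms on a log axis (CPM) in the 6 libraries, MSCsTXL-exo left of MSCs-exo within each arm and the marker shape giving the library number. The arms form 4 separate bands, from 48870.0 CPM or more for miR-143-3p to at most 179 CPM for miR-145-3p.

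Ratios within a library do not depend on depth or on scaling. miR-143 was carried almost wholly as its 3p arm, with 122, 180.0 and 178 miR-143-3p UMIs per miR-143-5p UMI in MSCsTXL-exo libraries 10, 12 and 13, against 144, 108 and 153 in the MSCs-exo libraries. miR-145 favoured its 5p arm more mildly, with 16.6, 9.88 and 11.0 miR-145-5p UMIs per miR-145-3p UMI in the MSCsTXL-exo libraries, against 13.6, 11.5 and 14.3 in the MSCs-exo libraries. In both hairpins the groups overlapped. The mean log2 ratio of miR-143-3p over miR-143-5p was 7.30 ± 0.32 (SD, n = 3) in MSCsTXL-exo and 7.06 ± 0.27 (SD, n = 3) in MSCs-exo (exact two-sided permutation test, p = 0.5). That of miR-145-5p over miR-145-3p was 3.601 ± 0.39 (SD, n = 3) in MSCsTXL-exo and 3.70 ± 0.16 (SD, n = 3) in MSCs-exo (exact permutation test, p = 0.7).

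The sister guides also kept a wide gap, although they share a primary transcript. There were 23.6, 51.1 and 28.2 miR-143-3p UMIs per miR-145-5p UMI in MSCsTXL-exo libraries 10, 12 and 13, against 43.3, 34.2 and 32.4 in the MSCs-exo libraries. The MSCsTXL-exo libraries held both the lowest and the highest of these ratios, and MSCs-exo was narrower (mean log2 ratio 5.02 ± 0.58 in MSCsTXL-exo and 5.18 ± 0.22 in MSCs-exo, SD, n = 3 each, exact permutation test, p = 0.7). The passengers differed less, with 3.22, 2.80 and 1.75 miR-143-5p UMIs per miR-145-3p UMI in the MSCsTXL-exo libraries, against 4.07, 3.65 and 3.02 in the MSCs-exo libraries. This ratio was lower in the MSCsTXL-exo library of each number, and only MSCsTXL-exo library 10 lay above the lowest MSCs-exo library (log2 difference -0.50, exact permutation test, p = 0.2). Without MSCsTXL-exo library 13, the lowest, the log2 difference was -0.24. Over the 4 ratios compared, the adjusted p was 0.7 for each (Benjamini-Hochberg on the exact permutation tests), and 3 libraries against 3 cannot go below p = 0.1.

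**Figure D4:**
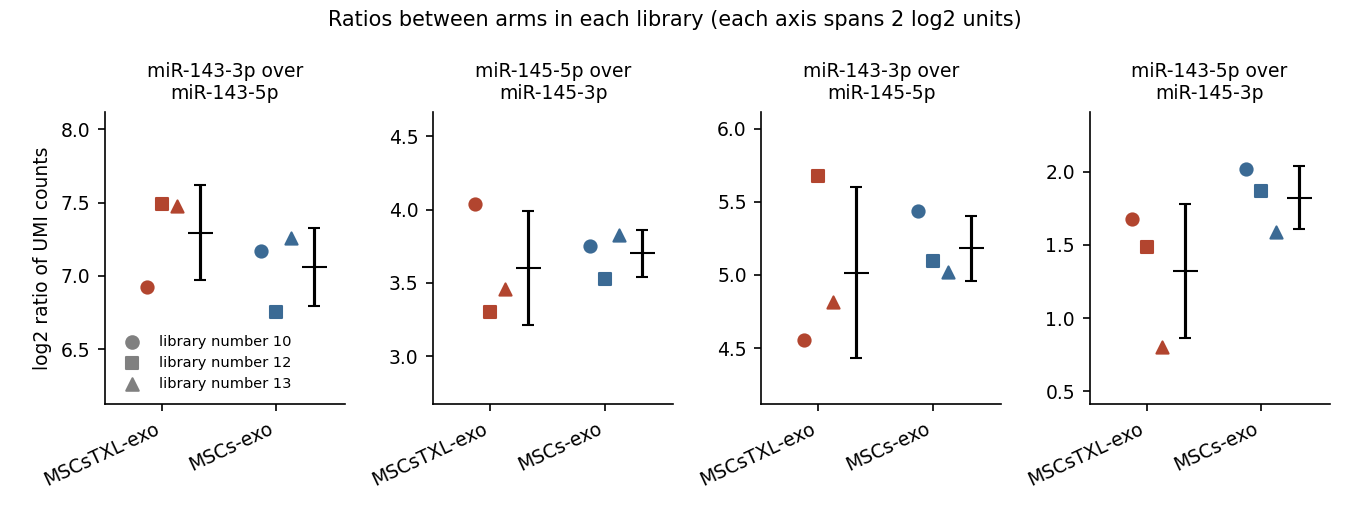
Log2 ratio of UMI counts between arms in each library, MSCsTXL-exo left of MSCs-exo, with marker shape giving the library number, black bars giving mean ± SD and each y axis spanning 2 log2 units. The widest spread is that of miR-143-3p over miR-145-5p in MSCsTXL-exo (5.02 ± 0.58), and the largest difference is that of miR-143-5p over miR-145-3p (-0.50).

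Among the pairs of arms that both passed the filter on low counts, miR-143 was toward the one-sided end and miR-145 was nearer the middle. The table pairs a 5p arm with a 3p arm of the same hairpin 321 times, and in 111 of these pairs both arms passed the filter. Pairs with an arm too rare for the filter were not ranked, and some of these are strongly one-sided. In MSCsTXL-exo library 13, for example, let-7i-5p had 67089 CPM and let-7i-3p 10.4 CPM. The ranks and the median therefore hold for the 111 pairs only. In these the more abundant arm exceeded the other by a median of 7.35-fold, and by over 100-fold in 19 pairs. miR-143 ranked 16 of the 111 with a 144-fold excess of its 3p arm, and miR-145 ranked 44 with a 12.6-fold excess of its 5p arm. The 5p arm was the more abundant in 68 pairs and the 3p arm in 43, so that the hairpins of this cluster fall on opposite sides. These pairs are not independent, since an arm made from several hairpins is counted in each, and the ranking carries no test.

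**Figure D5:**
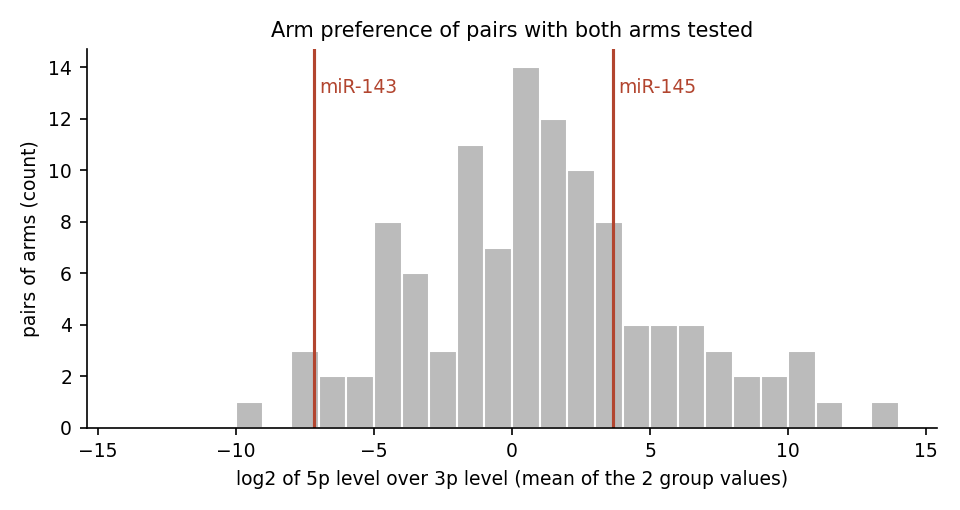
Histogram of the log2 ratio of 5p over 3p level for the 111 pairs of arms that both passed the filter, with miR-143 and miR-145 marked in red. miR-143 lies in the left tail (144-fold toward 3p) and miR-145 to the right of 0 (12.6-fold toward 5p).

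Levels of the arms from library to library were also compared with each other. Over the 6 libraries, which share their scaling and differ in depth, the Pearson correlation of log2(CPM + 1) was 0.67 between miR-143-3p and miR-143-5p, 0.38 between miR-145-5p and miR-145-3p and -0.38 between the guides miR-143-3p and miR-145-5p. Each is a description over 6 points. Among the 391 other tested miRNAs, miR-143-5p ranked 34 in likeness to miR-143-3p, a list led by miR-107-3p (0.89), a member of the miR-103/107 family, with miR-1843b-3p (0.86) and miR-411-5p (0.85) next. miR-145-5p was most like miR-146b-3p (0.87), miR-365-3p (0.85) and miR-128-3p (0.85). miR-145-3p was most like miR-140-5p (0.94), a cartilage miRNA, miR-199a-5p (0.94) and miR-3065-5p (0.91). miR-143-5p was most like miR-412-3p (0.86), miR-411-5p (0.84) and miR-770-5p (0.83). Some of these are rare, and counting error weighs on their correlations. miR-146b-3p had only 12.4 to 15.5 CPM over the 6 libraries. miR-1843b-3p had 4.99 CPM in MSCsTXL-exo library 10, where 3 UMIs make 7.48 CPM.

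The level of miR-143-3p can be set beside those of other miRNAs that are abundant in mesenchymal cells. miR-125b-5p, the most abundant miRNA of the table, had 185805 ± 39356 CPM (SD, n = 3) in MSCsTXL-exo and 166549.6 ± 29728 CPM (SD, n = 3) in MSCs-exo. miR-199a-3p, from the stromal Dnm3os locus, had 75179 ± 11352 CPM (SD, n = 3) in MSCsTXL-exo and 75788 ± 11314 CPM (SD, n = 3) in MSCs-exo, and miR-21-5p, which is raised in fibroblast activation, had 42357 ± 6448 CPM (SD, n = 3) in MSCsTXL-exo and 49062 ± 6573 CPM (SD, n = 3) in MSCs-exo. miR-143-3p thus stood between miR-199a-3p and miR-21-5p by its means in both groups, and its SD overlaps that of miR-199a-3p. Within a library miR-143-3p was 1.02 to 1.67 times miR-21-5p in MSCsTXL-exo and 1.18 to 1.53 times in MSCs-exo. Of the 8 listed abundant mesenchymal miRNAs, 4 lay above 0 and 4 below 0 in log2 fold change (median 0.07), and 0 passed both thresholds.

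Other miRNAs known to shape the smooth muscle phenotype gave the following picture. Of 6 listed for the contractile side, the muscle miRNAs miR-1-3p, miR-133a-3p and miR-133b-3p were nearly absent, with at most 8 UMIs in any library, and miR-204-5p was also below the filter, at 17.0 ± 11.9 CPM (SD, n = 3) in MSCsTXL-exo and 8.52 ± 2.01 CPM (SD, n = 3) in MSCs-exo. The other two were tested and did not pass: miR-10a-5p, which promotes smooth muscle differentiation, had 2353 ± 431 CPM (SD, n = 3) in MSCsTXL-exo and 2046 ± 424 CPM (SD, n = 3) in MSCs-exo, and miR-18a-5p had 17.9 ± 14.8 and 19.3 ± 3.15 CPM in the same order. So the contractile-side miRNAs in these exosomes were, by level, almost wholly miR-143-3p, with miR-10a-5p and miR-145-5p more than an order of magnitude below it.

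All 7 miRNAs listed for the synthetic, proliferative side were tested, and 6 lay above 0 and 1 below 0 in log2 fold change (median 0.20, against 0.03 over all tested miRNAs). Only miR-146a-5p, which restrains inflammatory receptor signaling, passed both thresholds, with a log2 fold change of 1.84 (standard error 0.74, adjusted p = 0.972 in edgeR, and 0.0235 with the replicate block). The groups of miR-146a-5p overlapped, at 3438 to 18907 CPM in MSCsTXL-exo and 1153 to 6014 CPM in MSCs-exo, and it no longer passed without MSCs-exo library 10 (1.61) or 12 (1.44) or without MSCsTXL-exo library 10 (1.83) or 13 (1.24), nor with all libraries when at least 10 counts were asked of each (1.80). The other 6 ran from -0.21 for miR-21-5p, over 0.01 for miR-222-3p and 0.12 for miR-221-3p, both repressors of the cell cycle inhibitor p27, to 0.26 for miR-31a-5p, with 0.20 for miR-24-3p and 0.21 for miR-26a-5p. The lists share miR-21-5p with the mesenchymal list, and they were drawn up with results of these libraries known.

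The summed markers of each other cell type lay below both guide arms, miR-143-3p and miR-145-5p, in every library. Not all of them lay below the passenger arms. The endothelial sum was above miR-143-5p and miR-145-3p, and the leukocyte sum was above miR-145-3p. In MSCsTXL-exo library 13 the leukocyte sum was also above miR-143-5p (306 against 275 CPM). The striated muscle sum was above miR-145-3p (108 to 179 CPM) in every library of both groups. It was also above miR-143-5p in every MSCs-exo library and in MSCsTXL-exo library 12 (570.1 against 406 CPM). In some libraries miR-122-5p was also above miR-145-3p, for example at 251 against 157 CPM in MSCsTXL-exo library 13. The summed levels were 17.3 to 31.8 CPM in MSCsTXL-exo and 22.7 to 35.2 CPM in MSCs-exo for erythroid markers (3 of 4 listed names in the table) and 24.6 to 69.8 against 31.3 to 43.6 CPM for epithelial markers (5 of 5). Endothelial miR-126a arms (2 of 2) summed to 806 to 1341 CPM in MSCsTXL-exo and 1017 to 1404 CPM in MSCs-exo, and miR-122-5p of hepatocytes and serum had 106 to 251 against 148 to 177 CPM. Leukocyte and myeloid markers (4 of 4) summed to 204 to 306 CPM in MSCsTXL-exo, below the 316 to 422 CPM of MSCs-exo. For comparison, the groups did not overlap for 7.4% of all tested miRNAs. The list did not move as a whole. miR-142-3p (mean 132 CPM in MSCsTXL-exo against 225 in MSCs-exo) and miR-223-3p (49.1 against 86.9) were lower (adjusted p = 0.972 for each in edgeR). miR-142-5p (5.67 against 6.70) was below the filter, and miR-150-5p (63.4 against 54.9) was higher. The part of these markers in the levels of the 4 arms was not tested. Striated muscle markers (7 of 7) summed to 147 to 570.1 CPM in MSCsTXL-exo and 453 to 848 CPM in MSCs-exo, mostly from miR-206-3p. That miRNA averaged 278 CPM in MSCsTXL-exo and 649 CPM in MSCs-exo (log2 fold change -1.22, past both thresholds with the replicate block and not without it), and its part in the levels of the 4 arms was not tested either. In the same list miR-133a-3p (2.73 CPM in MSCsTXL-exo against 7.64 in MSCs-exo) and miR-208a-3p (3.71 against 13.5) also averaged lower in MSCsTXL-exo. By contrast, miR-499-5p (18.3 against 14.8), miR-208b-3p (12.2 against 4.48), miR-1-3p (3.73 against 3.30) and miR-133b-3p (3.75 against 3.13) averaged higher there. Of these only miR-499-5p passed the filter on low counts. The MSCsTXL-exo libraries scattered widely, from 1.94 to 32.2 CPM for miR-208b-3p and from 0 to 9.89 CPM for miR-1-3p. They ran from 0 to 8.66 CPM for miR-133b-3p and from 0 to 11.1 CPM for miR-208a-3p. The 0 UMIs of miR-1-3p, miR-133a-3p and miR-133b-3p were in MSCsTXL-exo library 10, the shallowest. The list for stromal and smooth muscle cells held only miR-143-3p and miR-145-5p, arms described here, so it is no separate marker of cell type. Both were present in every library. Their sum ran between 50770.3 and 74449.7 CPM in MSCsTXL-exo and between 63293 and 72621 CPM in MSCs-exo.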

How the data were processed

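Exosomal RNA of rat MSCs was sequenced by the authors with the QIAseq miRNA Library Kit, with cutadapt 2.7 and Bowtie 1.2.2 listed in the submitters' processing notes. The values used are the deposited UMI counts per mature miRNA. The genome build and the collapsing of UMIs are not given in the sources used here. The table has 833 lines for 749 miRNAs, since 69 miRNAs have a line per locus with the same counts, and each was used once. The authors' CPM, in 6 further per-sample columns, was left unused. A column starting with T was taken as MSCsTXL-exo and with M as MSCs-exo, while its number (10, 12 or 13) could not be linked to a titled replicate.

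edgeR 4.0.16 (R 4.3.3) was fitted on the whole table with TMM factors (0.861 to 1.144), filterByExpr by group (minimum count 10, minimum total 15) and the quasi-likelihood test, unblocked. The script was tested on simulated data. Standard errors and 95% intervals were computed from its F statistic. Calls used the study's thresholds, a fold change over 2 with an unadjusted p under 0.05, or a Benjamini-Hochberg adjusted p under 0.05. Ratios between arms had 0.5 added to each count and were compared by exact permutation tests. Deviations from the group means, taken over miRNAs, had a correlation of 0.43 between the libraries numbered 10, 0.17 for 12 and 0.69 for 13, so the number was used as a replicate block in an alternative. The others were DESeq2 1.42.0, limma-voom (limma 3.58.1), RLE, upper quartile or no scaling factors, no count filter, a filter of 10 or more counts in each library, 0 or 5 counts added for the ratios, and each library left out. The rule for named miRNAs took the 4 arms, the 3 most similar to each over the libraries, any sharing a seed, the nearest on the chromosome, and lists for smooth muscle phenotype, mesenchymal abundance and other cell types. Members and lists were chosen with earlier results of these data known.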

Additional observations from a re-analysis of the deposited data

How the results depend on the processing

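The 4 arms stayed short of both thresholds under all 14 alternatives, and their adjusted p ran from 0.545 to 0.998. The signs of miR-143-3p (-0.27 to -0.18 over the settings with all libraries) and miR-143-5p (-0.54 to -0.46) held throughout. Without each library in turn, the log2 fold changes were -0.43 to -0.08 for miR-143-3p, -0.65 to -0.22 for miR-143-5p, -0.21 to 0.055 for miR-145-5p and -0.16 to 0.24 for miR-145-3p.
Of the alternatives with all libraries, those that turned a sign gave miR-145-3p -0.057 (library totals) and -0.039 (at least 10 counts in every library), miR-222-3p -0.038 (limma-voom), -0.068 (library totals), -0.0033 (no filter), -0.070 (at least 10 counts) and -0.027 (replicate block), and miR-18a-5p 0.0054 (RLE) and 0.10 (upper quartile). Leaving out a library in turn gave -1.11 to 0.31 for miR-18a-5p, -0.045 to 0.26 for miR-221-3p, -0.19 to 0.17 for miR-222-3p, -0.0094 to 0.29 for miR-24-3p, -0.24 to 0.42 for miR-26a-5p and 1.24 to 2.71 for miR-146a-5p. The log2 difference was -0.32 to 0.051 for miR-145-5p over miR-145-3p, turning without MSCsTXL-exo library 12, and -0.49 to 0.063 for miR-143-3p over miR-145-5p, turning without MSCsTXL-exo library 10. It was 0.082 to 0.42 for miR-143-3p over miR-143-5p and -0.68 to -0.24 for miR-143-5p over miR-145-3p. The miRNAs past both thresholds numbered 24 with DESeq2, 9 with limma-voom, 34 without a filter, 6 with at least 10 counts in every library and 29 with the replicate block, against 14, and 6 to 38 without a library in turn. The block left 1 miRNA below an adjusted p of 0.05, namely miR-146a-5p, and it brought miR-206-3p (log2 fold change -1.36) past the fold and unadjusted p thresholds, with no other such change among the miRNAs named in the text. With at least 10 counts in every library miR-146a-5p (1.80) was no longer past both thresholds. The cause of these changes was not tested. Depth limits miR-145-3p most, with 50 UMIs in its shallowest library.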
